A study of Mus musculus with 4 samples.

Results

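Aerocytes are the large, net-like capillary endothelial cells of the lung alveolus. They line the thin air-blood barrier, depend on VEGF signalling through Kdr, and lie in the same capillary network as the general capillary cells, which act as their progenitors and control vessel tone. They are known for carbonic anhydrase 4 (Car4), the endothelin B receptor (Ednrb) and the ligand apelin (Apln), whose receptor Aplnr sits on general capillary cells.

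The cells described here were chosen by counts of unique molecular identifiers (UMIs), each 1 captured transcript. Barcodes under 500 genes or 1000 UMIs, or with more than 10% mitochondrial UMIs, were left out. A barcode was called an aerocyte when it held the endothelial cadherin Cdh5, at least 3 of Car4, Ednrb, Apln, Fibin and Tbx2 with Ednrb or Apln among them, and no UMI of Prox1, Slc6a2, Gja5 or Ptprc. The last 4 mark lymphatic, venous and arterial endothelium and leukocytes. This left 1625 aerocytes among 68675 kept barcodes, or among 25175 endothelial barcodes (Cdh5 with no Ptprc). Of them 437 came from BPTES 1, 406 from BPTES 2, 351 from DMSO 1 and 431 from DMSO 2. The 10 gate genes chose the cells, so their levels are given only as a description.

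The study profiled whole lung of aged male C57BL/6 mice, 19 months old when dosing began and with no engineered allele named in the labels. The treated group received BPTES, a small-molecule inhibitor of glutamine breakdown, for 1 month, and the control group received the solvent DMSO for the same time. Lungs were digested with Liberase for 1 h, and for each library 20000 CD45-negative and 9000 CD45-positive sorted cells were mixed, so the share of leukocytes was set by hand. Each group had 2 libraries, and the labels name them only as samples, so p-values measure the spread between these libraries, which may be technical.

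The libraries held 260346570 to 342107092 UMIs over 16440 to 21986 deposited barcodes, of which 15349 to 20549 were kept. Aerocytes had median UMI counts of 17550 and 17876 in BPTES and 16978 and 17164 in DMSO, and 4519 to 4623 median genes. Their summed UMIs, the depth behind every level below, were 7672394 and 7406066 in BPTES and 6087530 and 7356173 in DMSO. No aerocyte barcode was an aerocyte in 2 libraries, although each pair of libraries shared 65 to 104 kept barcodes. Levels, written UPM, are UMIs per 1000000 UMIs of the class in that library.

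The label was set beside markers the gate did not use. They were chosen with earlier results of these data known, so they are no independent check. Of 18 further aerocyte genes, 14 were above general capillary cells in all 4 libraries and 10 at least 4-fold above in each. Of all genes at 10 UPM or more in either class, 38.0% and 1.92% were so. Emp2, a small membrane protein, is not among the 18 and was picked below by its ratio in these data. It measured 3303 and 3295 UPM in BPTES and 3252 and 3392 UPM in DMSO, against 39.6 to 56.8 UPM in general capillary cells. Kdr, the main VEGF receptor, measured 2397, 2302, 2342 and 2313 UPM in the same order, against 333 to 375 UPM. The matrix-binding protein Igfbp7 measured 4342 to 4726 UPM against 115 to 188 UPM, and Kitl, the ligand of the receptor Kit, 2915 to 3156 UPM against 422 to 604 UPM. Of the other 4 of the 18, Emcn overlapped between the classes, and Nckap5, Pcdh17 and the ligand gene Vegfa were lower in aerocytes. Vegfa measured 48.4 to 71.4 UPM against 437 to 598 UPM.

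Among the gate genes, Car4 averaged 2377 UPM in aerocytes and 148 UPM in general capillary cells, Fibin 680 and 1.61 UPM, and the transcription factor Tbx2 489 and 13.3 UPM. Cdh5 averaged 2063 and 1809 UPM.

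General capillary cells were defined in the same way, by Cdh5, at least 3 of Gpihbp1, Aplnr, Plvap, Kit and Sema3c, and no Ednrb, Apln, Prox1, Slc6a2, Gja5 or Ptprc. There were 14680 of them, with median UMI counts of 12100 to 13275. Both classes were cut from their own genes, so the contrast between them is a description without a test. A ratio is log2 of aerocyte over general capillary UPM with 1 UPM added to each. Over 9148 genes at 10 UPM or more, 38.0% were above and 36.6% below general capillary cells in all 4 libraries.

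At a level of at least 50 UPM in the higher class, 117 of 3861 genes (3.03%) were at least 4-fold higher in aerocytes in every library and 137 of 3876 (3.53%) at least 4-fold lower. The top of the first set was Tmeff2, a transmembrane protein with follistatin-like domains (chr1:50900647-51187270, mm10). It measured 916 and 761 UPM in BPTES and 885 and 986 UPM in DMSO, a mean of 887 ± 94.0 UPM (SD over the libraries, n = 4) against 3.92 ± 0.520 UPM in general capillary cells, with log2 ratios of 7.29 to 7.77. Chst1, which sulfates keratan sulfate (chr2:92599707-92615250), averaged 235 ± 9.99 UPM against 0.939 ± 0.207 UPM (SD, n = 4). All 4 libraries lay close together for both genes, and far from the other class.

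These were the first of the 15 genes with the largest ratios. Among the other 13, Pde8b, a phosphodiesterase that degrades cAMP, averaged 510 UPM against 5.03 UPM. The neural adhesion molecule Ncam1 averaged 166 against 0.692 UPM, and Tln2, a talin that couples integrins to actin, 264 against 5.50 UPM. Slc5a12, a sodium-coupled lactate carrier, ranged from 62.4 to 117 UPM against a mean of 0.187 UPM. Dpysl5, Rprml, Chst9, Frrs1 and Ccdc184 averaged 74.2 to 157 UPM and at most 2.56 UPM in general capillary cells. Not all of these genes marked aerocytes alone: Sirpa, the receptor of the signal Cd47, averaged 144 UPM in aerocytes and 84.2 UPM in lymphatic endothelium, and Rasa4, which switches Ras off, 159 and 92.8 UPM. Emp2 and the noncoding transcript AW112010 complete the 15.

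The 15 genes with the largest ratios in the other direction were lower in aerocytes. The matrix protein Hmcn1 (chr1:150562524-150993435) measured 188 and 154 UPM in BPTES and 221 and 173 UPM in DMSO, against a mean of 2194 ± 351 UPM (SD, n = 4) in general capillary cells. St6galnac3, a sialyltransferase, averaged 60.3 ± 1.14 UPM against 668 ± 52.8 UPM (SD, n = 4). The clotting factor carrier Vwf averaged 26.9 UPM against 284 UPM, Entpd1, which degrades extracellular ATP, 28.7 against 318 UPM, and the hyaluronan-degrading Tmem2 120 against 1086 UPM. Cadm1, Ntn1, Sntb1, Sema3g, Vegfc, Acer2, Gja4, Itga6, Gna14 and Slc24a4 averaged 10.6 to 86.0 UPM against 133 to 774 UPM. Among the endothelial classes Hmcn1, Cadm1, Sntb1, Acer2, Itga6, Gna14 and Slc24a4 averaged highest in general capillary cells. The others averaged higher in venous, arterial or lymphatic cells. Vwf averaged 2445 UPM and Vegfc 761 UPM in venous, Ntn1 598 UPM in lymphatic and Gja4 269 UPM in arterial cells. Vwf and Gja4 were themselves markers of the venous and arterial classes.

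**Figure D1:**
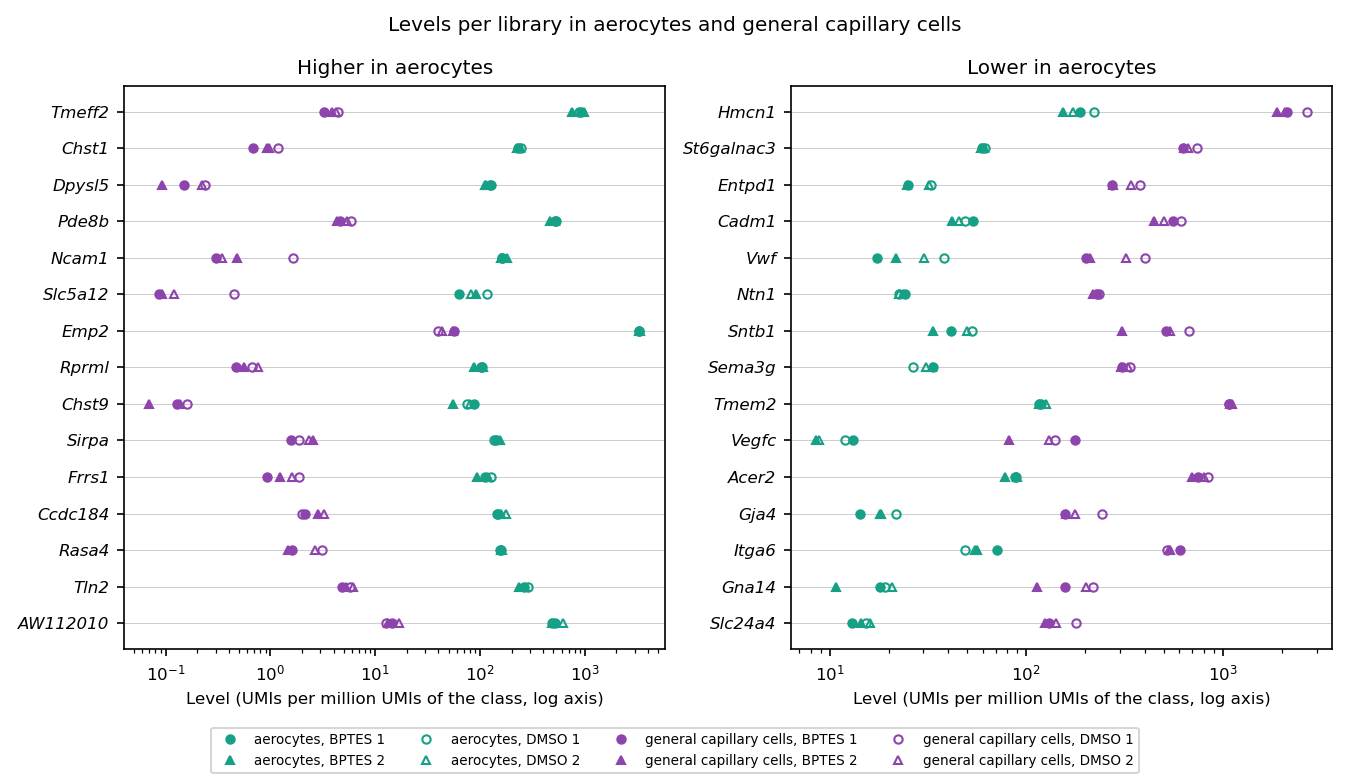
Level per library (UPM, log axis) of the 15 genes with the largest ratio in each direction, in aerocytes (green) and general capillary cells (purple), with filled symbols for BPTES and open symbols for DMSO. For every gene the 4 aerocyte points lie apart from the 4 general capillary points, as for Tmeff2 at a mean of 887 against 3.92.

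How firmly a barcode met the gate varied. Of the 1625 aerocytes, 1110 (68.3%) held all 5 markers, 325 (20%) held 4 and 190 (11.7%) held 3, and another 371 barcodes held exactly 2 and fell just outside. Barcodes with 5 markers were deeper: in the BPTES 1 library their median was 19416 UMIs, against 11875 UMIs at 3 markers and 13859 UMIs just outside. Genes that the gate did not use followed the number of markers. Emp2 averaged 229.5 UPM over libraries just outside the gate, 1041 UPM at 3 markers, 3075 UPM at 4 and 3621 UPM at 5.

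Genes higher in general capillary cells ran the other way. Plvap, which forms the diaphragms of endothelial openings, averaged 795, 619, 154 and 54.3 UPM at 2, 3, 4 and 5 markers, and St6galnac3 507, 355, 74.3 and 23.8 UPM. Neither gene was particular to general capillary cells. Plvap averaged 1153 UPM in venous and 890 UPM in arterial endothelium, and St6galnac3 745 and 582 UPM. Likewise, 86.7% of venous and 84.3% of arterial barcodes held at least 3 general capillary markers. In all, 108 and 81 aerocytes with BPTES and 59 and 95 with DMSO held at least 3 aerocyte and at least 3 general capillary markers. Where leaving out these barcodes moved the log2 fold change of a gene named for treatment by over 1.5 times, the value without them is given beside it.

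**Figure D2:**
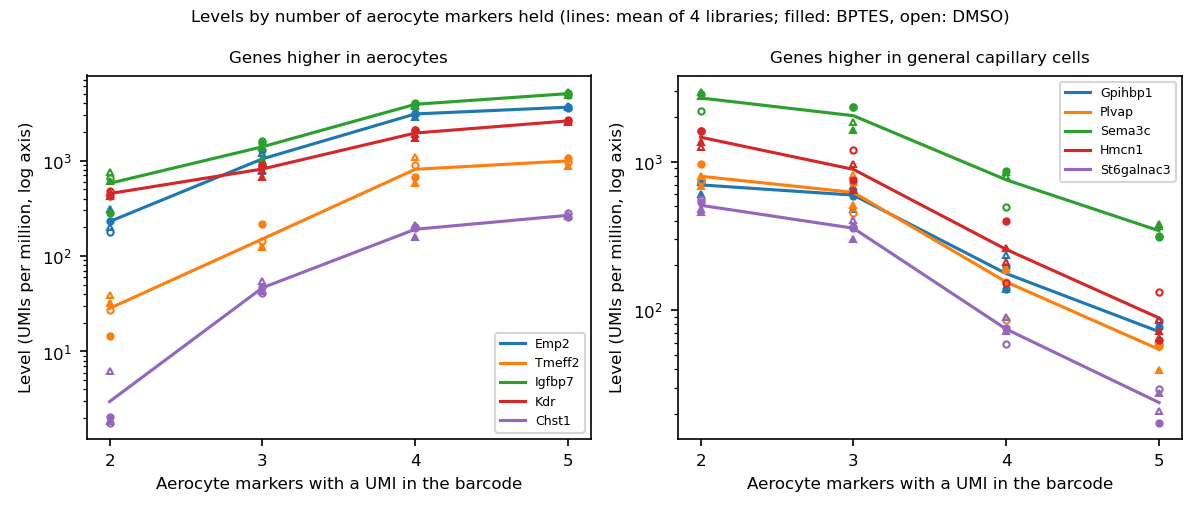
Level (UPM, log axis) of 5 genes higher in aerocytes that the gate did not use and 5 genes higher in general capillary cells. The horizontal axis is the number of the 5 gate markers a barcode held, where 2 lies just outside the gate. Points are libraries (filled BPTES, open DMSO) and lines join the means. The first 5 genes climb from 2 to 5 markers, Emp2 from 229.5 to 3621, and the other 5 fall, Plvap from 795 to 54.3.

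Markers of other cell types were low but not absent. Of 10 markers of alveolar epithelial type 1 cells, Emp2 and Hopx (685 to 917 UPM) were high in aerocytes, and the other 8 summed to 15.6 to 56.4 UPM, or 12.4 to 23.1 UPM without the highest barcode of each library, which held 61.2% of these UMIs in DMSO 2. Of 6 airway epithelial markers, 1, Krt5 of basal cells, was 0 in all 4 libraries. The 6 summed to 331 and 351 UPM in BPTES and 278 and 304 UPM in DMSO. In general capillary cells they summed to 495 and 444 UPM and 58.0 and 164 UPM. The club cell gene Scgb1a1 gave 64.1 and 44.6 UPM in BPTES aerocytes and 15.3 and 72.5 UPM in DMSO aerocytes. Most of each aerocyte sum thus came from other members. In general capillary cells Scgb1a1 gave 443 and 363 UPM and 25.8 and 123 UPM, so the sums of the classes rest on different genes. Of the 6, 1 was at least 4-fold above general capillary cells in every library. Fibroblast markers summed to 145 and 713 UPM in BPTES and 614 and 254 UPM in DMSO, with 22.8% to 28.9% of these UMIs in a single barcode of each library. Pericyte and smooth muscle markers summed to 110 and 386 UPM in BPTES and 42.1 and 165 UPM in DMSO. A single barcode held 64.8% of these UMIs in BPTES 2 and 38.9% in DMSO 2, and without the highest barcode of each library the sums were 79.0 and 137 UPM against 40.5 and 101 UPM. Of the 1625 aerocytes, 41 held at least 3 of 5 markers of epithelium, mesenchyme or leukocytes and are called possible doublets below.

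Surfactant and other alveolar type 2 markers summed to 378 and 577 UPM in the BPTES aerocytes and 144 and 232 UPM in the DMSO aerocytes. Without the highest barcode, which held 51.7% of these UMIs in BPTES 2, that library was at 280 UPM. In general capillary cells the same list summed to 1846 and 3035 UPM in BPTES and 1273 and 962 UPM in DMSO. The surfactant protein gene Sftpc measured 245 and 403 UPM against 57.5 and 133 UPM in aerocytes, and 8 of the 9 tested markers were above both DMSO libraries in both BPTES libraries, against 16.9% of all genes tested. Without possible doublets the log2 fold change of Sftpc was 1.12 and not 1.77. The BPTES libraries were thus the higher ones in both classes, and the part of this in the gene differences below was not tested.

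Aerocytes made up 6.86% and 7.12% of endothelial barcodes in BPTES and 6.63% and 5.52% in DMSO. The 95% Wilson intervals, which cover counting error only, were 6.26% to 7.51% and 6.48% to 7.82% in BPTES and 5.99% to 7.33% and 5.03% to 6.05% in DMSO. The means were 6.99% ± 0.186 and 6.07% ± 0.784 (SD, n = 2), a difference of 0.916 percentage points, which was 0.361 without DMSO 2 and 1.47 without DMSO 1. Both BPTES libraries were above both DMSO libraries, although the interval of DMSO 1 overlapped theirs. The exact two-sided permutation test gave p = 0.333, the smallest that 2 against 2 libraries allow.

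Against aerocytes and general capillary cells together the shares were 10.6% and 11.2% in BPTES and 10.3% and 8.38% in DMSO. That difference was 0.648 percentage points without DMSO 2 and 2.53 without DMSO 1. Against all barcodes without Ptprc they were 4.12% and 3.91% in BPTES and 3.59% and 3.41% in DMSO. Both had exact permutation p = 0.333. Since a deeper barcode shows more markers, barcodes were also thinned to 5000 UMIs before the gate. This left out the 1875 to 2747 shallower barcodes of each library. The differences were then 0.860, 1.39 and 0.467 percentage points for the 3 denominators. When aerocytes that also held 3 general capillary markers were no longer counted as aerocytes, the groups overlapped for the first 2 denominators. The differences were then 0.523 and 1.02 percentage points, with exact permutation p = 0.667. These barcodes stayed in the endothelial and Ptprc-negative totals.

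**Figure D3:**
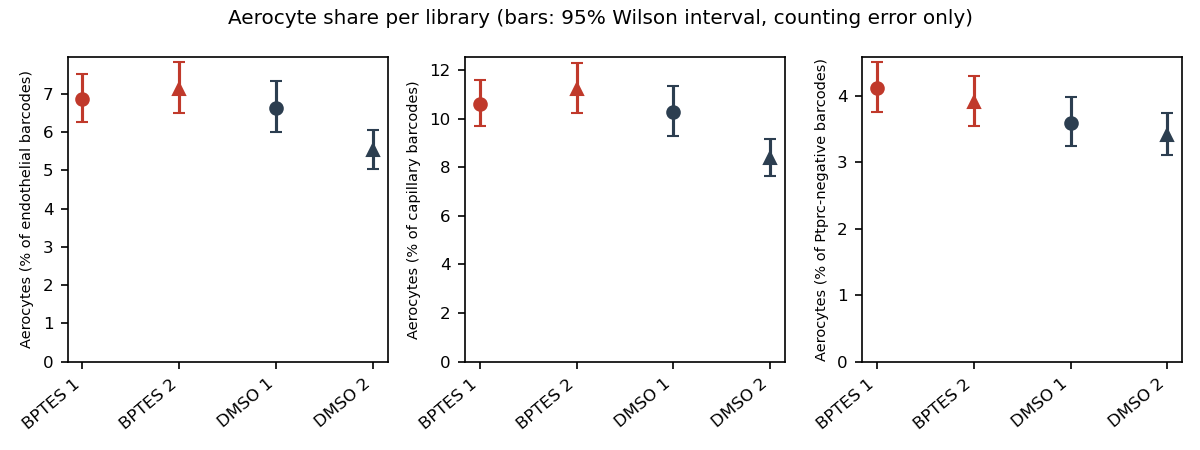
Aerocytes as a percentage of endothelial, capillary and Ptprc-negative barcodes in each library (red BPTES, dark blue DMSO), with 95% Wilson intervals that cover counting error only. The BPTES points lie above the DMSO points in all 3 panels, and the interval of DMSO 1 overlaps both BPTES intervals, as at 6.63% against 6.86% and 7.12% of endothelial barcodes.

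UMIs of the aerocytes of each library were summed and BPTES was compared with DMSO by edgeR's quasi-likelihood test with Benjamini-Hochberg adjustment over all genes. Of 12254 genes outside the gate, 0 (0.00%) had an adjusted p under 0.05. At an unadjusted p under 0.05 there were 937 (7.65%), 486 higher with BPTES (3.97%) and 451 lower (3.68%). DESeq2 called 32 of the 2509 genes to which it gave an adjusted p (1.28%), 15 higher (0.598%) and 17 lower (0.678%). Both BPTES libraries were above both DMSO libraries for 2075 genes (16.9%) and below for 2780 (22.7%), and these shares are the background for the lists below. In the lists, above and below mean that both BPTES libraries lay on that side of both DMSO libraries, called means the edgeR test after adjustment, and DESeq2 called 0 members unless a count is given. Counts were also simulated from the real mean levels, with a single dispersion for all genes and both groups. There the same fit called 76% of better-counted genes changed 2-fold and 15% of those changed 1.5-fold, so changes of 1.5-fold were mostly not called. The real BPTES libraries differed from each other more than the DMSO libraries did (chi-square per degree of freedom 8.32 against 3.95). The simulation leaves this out, so its shares do not carry over directly to these data.

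The 10 genes in each direction with the smallest p among those whose groups did not overlap are named without having been called, each with an edgeR adjusted p of 0.527. Tsc22d3, a leucine zipper protein known as a glucocorticoid target (ENSMUSG00000031431, chrX:140539528-140600659), measured 125 and 139 UPM in BPTES and 82.5 and 83.3 UPM in DMSO, a log2 fold change of 0.69 (SE 0.0786). Zbtb16, a zinc finger transcription factor (chr9:48654297-48836222), measured 243 and 284 UPM against 167 and 171 UPM, a log2 fold change of 0.66 (SE 0.0909). DESeq2 gave them adjusted p-values of 0.000265 and 4.37e-05. In both genes the 2 DMSO libraries were almost equal; that the groups lay apart was part of the choice of these genes. In general capillary cells the log2 fold changes were 0.76 and 1.00.

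Tead4, a transcription factor of the Hippo pathway, measured 52.8 and 54.7 UPM in BPTES against 32.5 and 34.5 UPM. The actin-binding Tmsb10 measured 75.9 and 78.3 UPM against 46.0 and 51.8 UPM, and Pde5a, which degrades cGMP, 99.6 and 107 UPM against 71.3 and 74.2 UPM. For Tmsb10 the log2 fold change of 0.67 was 0.33 without barcodes holding 3 general capillary markers. For Pde5a a single barcode held 12.4% and 20.6% of the UMIs in BPTES and 2.53% and 4.76% in DMSO, and the log2 fold change of 0.52 was 0.27 without barcodes holding 3 general capillary markers, 0.24 without possible doublets and 0.14 without barcodes holding 3 pericyte or smooth muscle markers. Hbegf, a ligand of the EGF receptor, was low at 16.03 and 16.7 UPM against 7.39 and 7.61 UPM, and a single barcode held 13.8% to 33.3% of its UMIs in each library. Its log2 fold change of 1.14 was 0.65 without possible doublets, 0.73 with at least 4 gate markers and 1.77 without barcodes holding 3 general capillary markers. In general capillary cells it was 0.45, and the interaction was not called (edgeR adjusted p = 0.780). Cyb5r3, a reductase of the cytochrome b5 system, Itpripl2 and Rsrp1 had log2 fold changes of 0.48, 0.41 and 0.69. DESeq2 called Cyb5r3, Itpripl2, Pde5a and Rsrp1.

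Kcnq5, a potassium channel subunit (chr1:21398403-21961942), had the largest of these log2 fold changes at 3.4 (SE 0.50), with 30.1 and 46.0 UPM in BPTES and 1.48 and 5.57 UPM in DMSO. A single barcode held 63.2% and 93.3% of its UMIs in the BPTES libraries. Without barcodes holding at least 3 pericyte or smooth muscle markers, 6 and 12 in BPTES and 3 and 4 in DMSO, the log2 fold change was -0.14. It was 0.77 without possible doublets and 2.05 without barcodes holding 3 general capillary markers.

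Of the genes lower with BPTES, Irf1, a transcription factor of the interferon response (chr11:53770014-53778374), measured 293 and 287 UPM against 373 and 394 UPM in DMSO, a log2 fold change of -0.38 (SE 0.0614). Zfp36, which speeds mRNA decay (chr7:28376784-28380253), measured 222 and 245 UPM against 347 and 319 UPM, a log2 fold change of -0.49 (SE 0.0798). The kinase Sgk1 (chr10:21882184-21999903) measured 237 and 219 UPM against 334 and 303 UPM, with a log2 fold change of -0.46 (SE 0.0751) and -0.01 in general capillary cells. Its interaction of class and treatment was not among those called.

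The homeobox gene Meis2 measured 153 and 150 UPM against 204 and 204 UPM, and H3f3b, a gene of the replacement histone H3, 622 and 594 UPM against 824 and 780 UPM. C1qtnf7, a secreted C1q-like protein, measured 36.1 and 35.4 UPM against 73.4 and 60.2 UPM. S100a9, a protein of neutrophils, measured 9.64 and 11.1 UPM against 22.7 and 21.2 UPM, and it was lower with BPTES in general capillary cells too, with a log2 fold change of -0.90. Its UMIs lay in 15.6% to 29.9% of the aerocytes of a library, with at most 4 in a barcode. Whether these came from aerocytes or from stray leukocyte RNA was not tested. The leukocyte markers, S100a9 among them, summed to 91.9 and 130 UPM in BPTES against 78.0 and 98.3 UPM. Trim69, a ubiquitin ligase, Arrdc3 and Colgalt2, a collagen galactosyltransferase, had log2 fold changes of -0.83, -0.60 and -0.47. DESeq2 called Irf1, Zfp36, Sgk1, Meis2 and H3f3b of these 10.

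**Figure D4:**
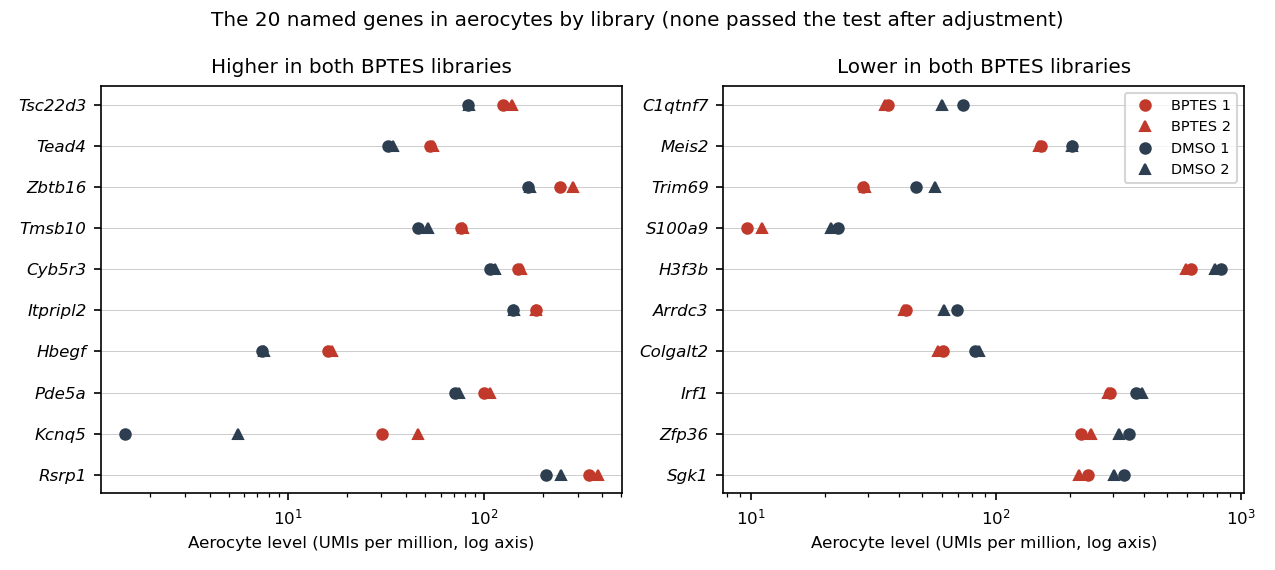
Aerocyte level per library (UPM, log axis) of the 10 genes in each direction with the smallest p among those whose groups did not overlap, with BPTES in red and DMSO in dark blue. No gene passed the edgeR test after adjustment, and most gaps are under 2-fold, as for Tsc22d3 at 125 and 139 against 82.5 and 83.3.

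Heat shock genes encode chaperones that refold proteins under stress. All 14 on the list were tested: 0 were called, 9 had an unadjusted p under 0.05, 10 were above, 0 were below and 4 overlapped. The median log2 fold change was 0.63, against -0.000642 over all genes tested. It was 0.28 without BPTES 2, with 12 of the 14 positive, and 0.90 without BPTES 1. The list summed to 4247 and 6370 UPM in BPTES and 3378 and 3841 UPM in DMSO. In general capillary cells it summed to 3118 and 4181 UPM against 2454 and 2580 UPM, so the BPTES 2 library was the highest in both classes.

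Hspa8, the constitutive Hsp70, measured 631 and 883 UPM in BPTES and 499 and 503 UPM in DMSO, and Dnaja1, its J-domain partner, 348 and 646 UPM against 262 and 268 UPM. Hsph1, a nucleotide exchange factor, measured 16.7 and 84.8 UPM against 8.71 and 9.38 UPM. The inducible Hspa1a measured 39.4 and 205 UPM against 37.6 and 28.1 UPM, and its near-identical neighbour Hspa1b 26.8 and 175 UPM against 19.4 and 13.1 UPM. Reads of these 2 genes may be split between them uncertainly. In all 5 genes BPTES 2 was the highest library, and BPTES 1 was above both DMSO libraries by less. Without BPTES 2 the log2 fold changes of Hspa8, Dnaja1, Hsph1, Hspa1a and Hspa1b were 0.35, 0.41, 0.90, 0.28 and 0.75, where all libraries gave 0.62, 0.93, 2.50, 1.92 and 2.67. Without BPTES 1 those of Hsph1, Hspa1a and Dnaja1 were 3.24, 2.67 and 1.30 with edgeR adjusted p-values of 0.00302, 0.00429 and 0.00417, in a fit that takes the spread from the DMSO libraries alone.

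Hspb1, a small chaperone that binds actin, differed more between classes than between treatments: 973 and 1247 UPM in BPTES aerocytes and 721 and 976 UPM in DMSO aerocytes, against 84.2 to 180 UPM in general capillary cells. Per barcode, after thinning to 5000 UMIs, the list gave a median of 20 and 31 UMIs in BPTES and 15 and 18 UMIs in DMSO. The middle 80% of barcodes ran from 12.1 to 32 and from 17 to 44.8 UMIs in BPTES and from 8 to 24 and from 10 to 28 UMIs in DMSO, so the barcodes of all 4 libraries overlapped.

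Heat shock genes are known to be switched on through elements built from inverted GAA repeats upstream of their start. The 250 bases before the start were read from the RefSeq table (GRCm38.p6) for 11 of the 14 genes, and 8 of their 16 windows, in 7 genes, held GAANNTTC or TTCNNGAA (each motif is its own reverse complement). Of all 32851 windows in the table, 12.8% did. The windows are not independent: those of Hspd1 and Hspe1 lie on the 2 strands of a shared promoter, those of Hsph1 overlap, and Hspa1a and Hspa1b are near-identical genes. Overlapping windows merged, 6 of 13 regions held a match, while the 12.8% is over windows that were not merged. Hspa5, Hspb8, Bag3 and Dnajb1 had no match, and for Hspa8, Hsp90aa1 and Hsp90ab1 no window was read. The 2 genes with the largest log2 fold changes of the list both had a match, and their windows are shown with the motif in capitals, Hspa1b at chr17:34959239-34959488 and Hsph1 at chr5:149636337-149636586, both on the minus strand. A match is a description of the letters and not a bound site, and a link of matches to fold changes was not tested.

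Hspa1b: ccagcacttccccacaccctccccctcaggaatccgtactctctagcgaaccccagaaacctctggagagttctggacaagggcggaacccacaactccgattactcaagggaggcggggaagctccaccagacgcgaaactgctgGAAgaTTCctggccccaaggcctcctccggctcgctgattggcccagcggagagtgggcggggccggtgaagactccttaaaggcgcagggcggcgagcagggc
Hsph1: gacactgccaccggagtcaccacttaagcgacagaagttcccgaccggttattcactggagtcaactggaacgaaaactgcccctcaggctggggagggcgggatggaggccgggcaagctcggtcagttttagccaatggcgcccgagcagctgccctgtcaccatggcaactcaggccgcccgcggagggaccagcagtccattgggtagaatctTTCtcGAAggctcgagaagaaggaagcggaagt

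Immediate early genes are transcription factors and feedback regulators that respond to stimuli within minutes. Of 20 tested, 0 were called and 13 had an unadjusted p under 0.05, 11 lower and 2 higher, while DESeq2 called 8, all lower except Klf4. Of the 20, 13 were below, 2 were above and 5 overlapped. The median log2 fold change was -0.25, and -0.16 without DMSO 1. Junb, an AP-1 subunit, measured 636 and 636 UPM in BPTES and 966 and 814 UPM in DMSO. Btg2, an antiproliferative gene, measured 356 and 347 UPM against 590 and 464 UPM, and Egr1 660 and 527 UPM against 1061 and 816 UPM. Atf3 measured 299 and 319 UPM against 390 and 408 UPM.

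The 2 genes above were Klf4 and Klf6, related zinc finger transcription factors. Klf4 measured 1541 and 1650 UPM against 1128 and 1322 UPM, and Klf6 430 and 488 UPM against 364 and 378 UPM. The flow-responsive Klf2 overlapped, at 1668 and 1438 UPM against 1549 and 1725 UPM. Thinned to 5000 UMIs, an aerocyte held a median of 54 and 50 UMIs of the list in BPTES and 65 and 57.5 UMIs in DMSO.

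MHC class II genes, which present antigen, were low in aerocytes. Of 7 at 10 UPM or more in either class, 7 were at least 4-fold below general capillary cells in every library. Their median log2 ratio was -2.91. Of the 3876 genes at 50 UPM or more in the higher class, 3.53% were at least 4-fold lower in every library. That share was not counted at 10 UPM. The invariant chain Cd74 measured 129 and 107 UPM in BPTES and 146 and 163 UPM in DMSO, against 912 to 1423 UPM in general capillary cells. Of 8 tested, 0 were called, 3 had an unadjusted p under 0.05, 6 were below and 2 overlapped, with a median log2 fold change of -0.25. An aerocyte thinned to 5000 UMIs held a median of 0 UMIs of the list in every library, and the highest held 27 to 45. This direction was lost without barcodes holding 3 general capillary markers, where the median was 0.079 and 4 of 7 members were positive, and with at least 4 gate markers, where it was 0.023 and 4 of 8 were positive. In the first of these the log2 fold change of Cd74 was -0.03 and not -0.37, and that of H2-Eb1 0.079 and not -0.26.

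MHC class I genes did not separate the classes in that way. Of 18, 5 were above and 9 below general capillary cells in every library, beside 38.0% and 36.6% of the 9148 genes compared between classes. Of these 18, 0 were called, 1 had an unadjusted p under 0.05, 6 were below and 12 overlapped. H2-K1 measured 1155 and 1027 UPM against 1230 and 1398 UPM. Of 39 interferon-stimulated genes, 0 were called and 4 had an unadjusted p under 0.05, DESeq2 called 1, Irf1, and 7 were below and 32 overlapped, with a median log2 fold change of -0.02 that ran from -0.31 to 0.18 when 1 library was left out. The GTPase Iigp1 was among the 7, at 36.9 and 30.8 UPM against 56.0 and 52.2 UPM, a log2 fold change of -0.66 that was -1.20 without barcodes holding 3 general capillary markers, while Isg15 overlapped at 85.8 and 53.1 UPM against 52.6 and 68.5 UPM. In aerocytes 26 of 36 of these genes were below general capillary cells in every library, beside 36.6% of the 9148 genes compared between classes.

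**Figure D5:**
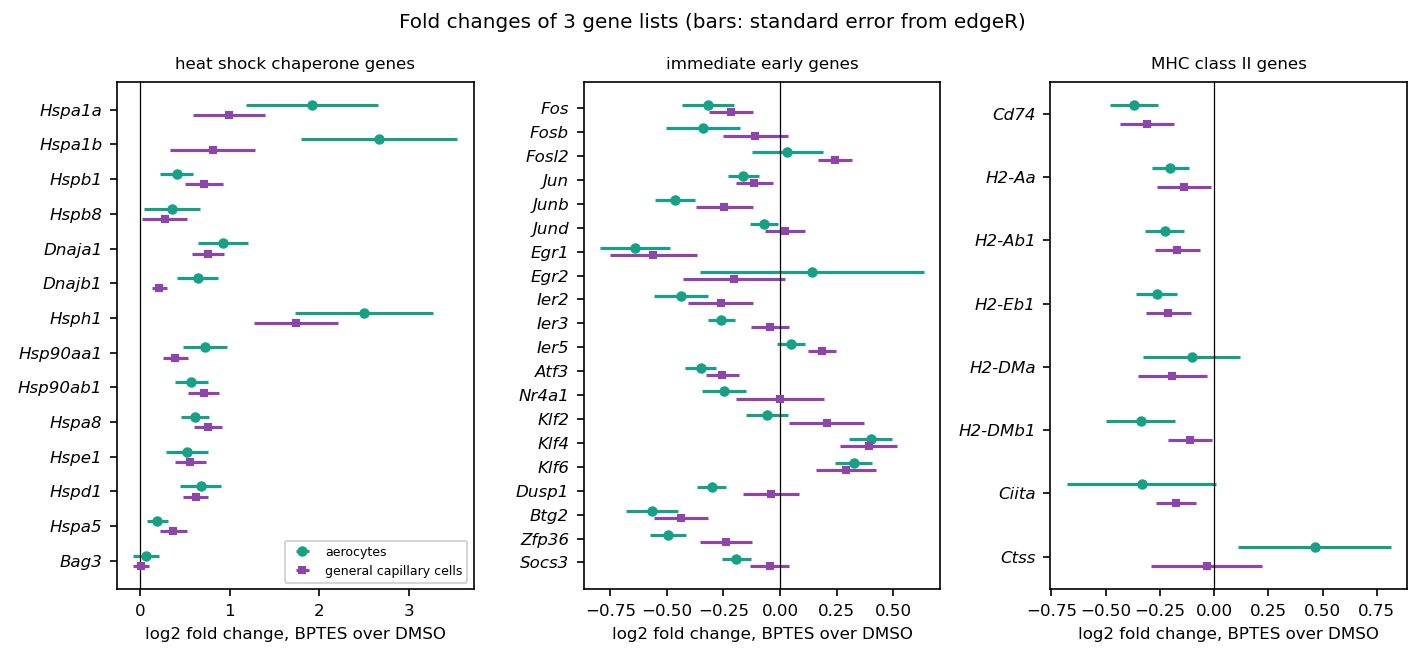
Log2 fold change of BPTES over DMSO with the standard error from edgeR for heat shock, immediate early and MHC class II genes, in aerocytes (green circles) and general capillary cells (purple squares). Most heat shock points lie right of 0 and most immediate early points left of it in both classes, and no gene passed the edgeR test after adjustment. In aerocytes DESeq2 called 8 of the immediate early genes, all lower except Klf4.

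Of 27 genes of glutamine and amino acid metabolism tested, 0 were called, 3 had an unadjusted p under 0.05, 7 were above, 4 were below and 16 overlapped. The glutamine carrier Slc38a2 measured 113 and 140 UPM against 98.2 and 104 UPM. Glul, which makes glutamine, overlapped at 120 and 106 UPM against 128 and 106 UPM.

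Of 21 genes of the ATF4 response to amino acid shortage, 0 were called and 3 had an unadjusted p under 0.05, and DESeq2 called 1, Atf3. Of the 21, 8 were above, 3 were below and 10 overlapped, with a median log2 fold change of 0.23 that was -0.03 without BPTES 2, 0.13 without barcodes holding 3 general capillary markers, 0.05 with at least 4 gate markers and 0.14 with a replicate block. Eif4ebp1, an inhibitor of translation initiation, was above at 42.1 and 43.7 UPM against 32.5 and 35.9 UPM, and the transcription factor Cebpg was above at 97.0 and 103 UPM against 87.6 and 85.4 UPM. Asns, the asparagine synthetase, was below both DMSO libraries at 32.7 and 38.3 UPM against 38.4 and 44.2 UPM, and Atf4 itself overlapped at 290.5 and 298 UPM against 293 and 307 UPM. TCA cycle genes overlapped in 14 of 20, glycolysis and lactate genes in 16 of 21, and glutathione and NRF2 genes in 17 of 19. Between classes, 14 of 20 TCA cycle genes were above general capillary cells in every library, beside 38.0% of all genes at 10 UPM or more. Idh2, a mitochondrial NADPH source, measured 106 to 112 UPM against 30.0 to 33.8 UPM.

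Of 25 genes of the senescence list at 10 UPM or more, 11 were above and 6 below general capillary cells in every library, beside 38.0% and 36.6% of all genes at that level, and 5 were at least 4-fold above, beside 1.92% of all genes. The genes above included cell cycle inhibitors. Cdkn2a, which encodes an inhibitor of Cdk4, measured 22.2 and 12.02 UPM in BPTES and 26.4 and 10.3 UPM in DMSO, against 0.257 to 0.530 UPM in general capillary cells. Its neighbour Cdkn2b measured 98.3, 80.7, 123 and 93.1 UPM against 3.34 to 6.08 UPM. Cdkn1a, which encodes a broad inhibitor of cyclin-dependent kinases, measured 927 and 953 UPM in BPTES and 764 and 849 UPM in DMSO, against 353 to 368 UPM. Aerocytes of all 4 libraries were above all general capillary values for the 3 genes, and between treatments Cdkn2a and Cdkn2b overlapped.

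Of the secreted proteins, the stress cytokine Gdf15 measured 85.6 and 127 UPM in BPTES and 39.8 and 91.8 UPM in DMSO, against 0.450 to 2.81 UPM in general capillary cells. Il1a, an interleukin, measured 35.1 to 48.3 UPM against 0.926 to 1.59 UPM. Members of the same list below general capillary cells included the kinase gene Plk2, at 394 to 570 UPM against 594 to 756 UPM, and the survival gene Mcl1, at 395 to 446 UPM against 469 to 515 UPM. Of 29 tested for treatment 0 were called, 10 had an unadjusted p under 0.05, 7 were above, 7 were below and 15 overlapped. Lmnb1, a nuclear lamina gene, was below at 10.6 and 10.5 UPM against 14.0 and 15.6 UPM. Its log2 fold change of -0.47 was -0.72 without barcodes holding 3 general capillary markers.

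VEGF drives the growth and upkeep of capillaries. Its receptor gene Kdr had a log2 fold change of 0.03 with BPTES. The co-receptor Nrp1 measured 2405 and 2167 UPM in BPTES and 2704 and 2521 UPM in DMSO, against 709 to 947 UPM in general capillary cells, and the decoy receptor Flt1 1068 to 1187 UPM against 1289 to 1484 UPM. The angiopoietin receptor Tek measured 117 to 135 UPM against 895 to 1259 UPM, and the vasoconstrictor gene Edn1 21.0 to 33.5 UPM against 233 to 327 UPM. Of 12 VEGF pathway genes tested 0 were called, 2 had an unadjusted p under 0.05, 4 were above, 2 were below and 6 overlapped.

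Of 17 basement membrane genes 0 were called, 3 had an unadjusted p under 0.05, 5 were above, 4 were below and 8 overlapped. The collagen IV chains Col4a1 and Col4a2 measured 614 and 718 UPM against 515 and 586 UPM and 437 and 540 UPM against 364 and 393 UPM. Of 11 Notch pathway genes 0 were called, 2 had an unadjusted p under 0.05, 5 were above, 0 below and 6 overlapped. Among the 5 was Nrarp, a feedback inhibitor, at 23.6 and 19.0 UPM against 13.6 and 16.4 UPM.

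Whether the treatment difference itself differed between aerocytes and general capillary cells was tested as an interaction over 15525 genes, of which edgeR called 2 (0.0129%) and 715 (4.61%) had an unadjusted p under 0.05. These were Kcnq5, described above, and Scgb1a1, a secretoglobin of airway club cells. Scgb1a1 measured 64.1 and 44.6 UPM in BPTES aerocytes and 15.3 and 72.5 UPM in DMSO aerocytes, against 443 and 363 UPM and 25.8 and 123 UPM in general capillary cells. The interaction was -2.17 (SE 0.142, edgeR adjusted p = 0.0134). It was not called without possible doublets, where it was -1.63, nor without DMSO 1 or without DMSO 2. In general capillary cells Kcnq5 measured 7.99 and 15.1 UPM in BPTES and 12.7 and 20.8 UPM in DMSO. The interaction of Kcnq5 was 3.99 (SE 0.326, edgeR adjusted p = 0.0325). It was not called with RLE size factors, with at least 4 gate markers, without barcodes holding 3 general capillary markers, or without DMSO 1 or DMSO 2. It was 0.41 without possible doublets and 0.49 without barcodes holding 3 pericyte or smooth muscle markers, and not called in either. The next genes by p were not called. Postn, a matrix protein of fibroblasts, was at 2.41 (edgeR adjusted p = 0.155), with 60.3% and 78.7% of its BPTES aerocyte UMIs in a single barcode. Adgrg1, an adhesion receptor, was at -0.87, and Slc4a8, a bicarbonate carrier, at -1.07. Their log2 fold changes were 0.02 and -0.01 in aerocytes and 0.89 and 1.07 in general capillary cells. There Adgrg1 measured 12.4 and 13.5 UPM in BPTES against 7.67 and 6.90 UPM, and Slc4a8 6.12 and 6.11 UPM against 3.17 and 2.91 UPM. In general capillary cells edgeR called 0 of 16399 genes (0.00%), with 3138 (19.1%) at an unadjusted p under 0.05.

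Variation among aerocytes was measured by the Fano factor, the variance over the mean of a gene's UMIs, after each barcode was thinned to 5000 UMIs, which left out 19 to 28 shallower aerocytes per library. Pure counting gives a value near 1. Over 6077 genes the median of the lowest library was 1.06, and 253 genes were at 2 or more in every library, or 226 without possible doublets and 179 without barcodes holding 3 general capillary markers. The 10 genes with the highest value in their lowest library were Gm42418 (45.2), Gsn (19.4), Mgp (19.1), Malat1 (16.9), Plcb1 (14.0), Dcn (13.6), Ptprb (11.4), Prickle2 (9.16), Limch1 (8.09) and Inmt (7.94). Dcn is itself a mesenchyme marker used to define possible doublets, so leaving them out tends to lower its value by construction. Without possible doublets the lowest values of Gsn, Mgp, Dcn, Limch1 and Inmt were 0.965 to 1.63. The other 5 were at 8.79 or more: Gm42418, a transcript that overlaps ribosomal RNA, the nuclear noncoding RNA Malat1, Plcb1, a phospholipase, Ptprb, a phosphatase of Tek, and Prickle2, a planar polarity protein. Plcb1 and Ptprb were both lower in aerocytes than in general capillary cells, Plcb1 at 215 to 363 UPM against 2555 to 2759 UPM and Ptprb at 313 to 448 UPM against 3112 to 3775 UPM. Without barcodes holding 3 general capillary markers Ptprb ranged from 2.24 to 3.75 over the libraries and no longer from 11.4 to 13.9, while Plcb1 ranged from 5.11 to 32.5 and no longer from 14.0 to 20.2. The lowest values of Malat1 and Prickle2 were then 16.5 and 8.07.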

How the data were processed

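The deposited files hold UMI counts per gene and barcode for each library, which the authors made with Cell Ranger 8.0.1, per the file headers, on build mm10, per the submitters' processing notes. The counts were used as deposited and no barcode was moved between libraries. The members and all 36 gene lists were chosen with earlier results of these data known, so no list is independent evidence.

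Barcodes passed the limits and gates given above. No doublet caller was run. Barcodes with at least 3 of 5 markers of epithelium, mesenchyme or leukocytes were called possible doublets and were left out in an alternative. UMIs were summed per library and class over 31054 features. Treatment was tested with edgeR 4.0.16 (R 4.3.3, glmQLFit and glmQLFTest, TMM factors of 0.991 to 1.01, filterByExpr), two-sided, with Benjamini-Hochberg adjustment over all genes and a threshold of 0.05. The 10 gate genes stayed in the fit and out of the counts. The interaction was fitted over the sums of both classes, 8 in all. DESeq2 1.42.0 was an alternative. Shares were compared by exact permutation (scipy 1.17.1). Counts were simulated for 12378 genes with a single dispersion for all genes and both groups. On these the fit called 76% of 100 genes changed 2-fold, 15% of 100 changed 1.5-fold and 3 unchanged genes.

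Named genes were, per direction, the 10 with the smallest p at a mean of at least 10 UPM with no overlap, since none was called, the 15 with the largest smallest ratio between classes at 50 UPM or more, the 10 with the largest smallest Fano factor and the 5 interactions with the smallest p, beside list members. Gene coordinates are GENCODE vM21 (GRCm38, the sequence of mm10), found for 30934 of the features. Alternatives were other size factors, no filter on low counts, a replicate block, stricter gates, limits of 5% mitochondrial UMIs and 5000 UMIs, and each library left out. Leaving out barcodes with 3 pericyte or smooth muscle markers, and for the Fano factors those with 3 general capillary markers, was chosen after seeing the data. Some genes of the lists are counted but not reported by name here.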

Additional observations from a re-analysis of the deposited data

Results flagged for a closer look

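The BPTES effect in aerocytes differed from that in general capillary cells for 2 genes, by the interaction test of edgeR. Scgb1a1 had an interaction of -2.17 on the log2 scale (SE 0.142, adjusted p = 0.0134), which was called without BPTES replicate 1 and without BPTES replicate 2 but not without DMSO replicate 1 or DMSO replicate 2, nor without possible doublets, where it was -1.63. Kcnq5 had an interaction of 3.99 (SE 0.326, adjusted p = 0.0325). It was not called with RLE size factors (adjusted p = 0.0509), with at least 4 gate markers, without barcodes holding 3 general capillary markers, or without DMSO replicate 1 or DMSO replicate 2. Without possible doublets it was 0.41, and without barcodes holding 3 pericyte or smooth muscle markers 0.49.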

How the results depend on the processing

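The count of genes called in aerocytes was 0 under 9 of the alternatives that kept all 4 libraries and 32 with DESeq2 (15 higher and 17 lower), and 0 to 60 when 1 library was left out. The 60, of which 58 were higher, came without BPTES replicate 1 and included Hspa1a, Hspa1b, Hsph1, Tsc22d3, Zbtb16 and Per2. In those fits the lone library of a group is assumed to vary like the other group, although the BPTES libraries differed from each other more than the DMSO libraries did (chi-square per degree of freedom 8.32 against 3.95), so these calls and their adjusted p-values rest on an assumption that the spreads do not meet. The count of interactions, 2 as reported, was 19 with DESeq2, 54 with no filter on low counts, 12 without possible doublets, and 1 with RLE size factors, with at least 4 gate markers, without barcodes holding 3 general capillary markers and without barcodes holding 3 pericyte or smooth muscle markers. It was 0 to 9 when 1 library was left out, with 9 without BPTES replicate 1 and 0 without DMSO replicate 1 or 2.

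Over 89 followed genes and 1264 pairs of gene and alternative, 1214 kept their direction and side of the threshold, 31 gained a call (18 with DESeq2 and 13 without BPTES replicate 1), 10 lost one and 9 reversed; the cause was not tested. Reversed log2 fold changes were, without possible doublets, -0.48 for Cox4i2, -0.19 for Postn and -0.51 for Il6; without barcodes holding 3 general capillary markers, 0.0024 for Vwf, 0.75 for Entpd1, -0.18 for Sparcl1 and 0.079 for H2-Eb1; with at least 4 gate markers, 0.074 for H2-Eb1; and without pericyte barcodes, -0.14 for Kcnq5. The difference in share kept its direction in every alternative run. Leaving out 1 library moved it between 0.361 and 1.47 percentage points of endothelial barcodes, the lowest without DMSO replicate 2. The counts of class genes and of variable genes stayed within 1.5 times of those reported.

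Same-numbered libraries did not deviate together (r = -0.179 across 8623 genes), and with a replicate block 0 genes were called. With 2 libraries per group, pairs of crossed numbers give the opposite value by construction, r = 0.179. A block for crossed numbers was not fitted. The biological coefficient of variation was 0.142. In data simulated with this value for every gene and both groups, the fit called 15% of 1.5-fold changes. Sizes between 1.5-fold and 2-fold were not simulated.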

Other observations

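Other fixed lists gave the following values in aerocytes, with 0 genes called by edgeR or DESeq2 in each. BMP and ALK1 signalling keeps alveolar vessels quiescent, and of 17 genes tested 2 had an unadjusted p under 0.05, 1 was above both DMSO libraries, 6 were below and 10 overlapped. The receptor gene Acvrl1 measured 1245 and 1135 UPM in BPTES and 1203 and 1284 UPM in DMSO, against 739 to 820 UPM in general capillary cells, and the ligand gene Bmp6 177 to 239 UPM against 959 to 1408 UPM. Of 18 junction and barrier genes 0 had an unadjusted p under 0.05, 3 were above, 4 below and 11 overlapped. The tight junction gene Cldn5 measured 2350 and 2272 UPM in BPTES and 2465 and 2542 UPM in DMSO, against 1347 to 1485 UPM in general capillary cells. Prx, which encodes periaxin, measured 877 to 980 UPM against 195 to 266 UPM.

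Of 15 adhesion and clotting genes 3 had an unadjusted p under 0.05, 1 was above, 5 below and 9 overlapped. Icam1, a leukocyte adhesion receptor, measured 445 and 536 UPM in BPTES and 565 and 599 UPM in DMSO, against 141 to 183 UPM in general capillary cells, and Icam2 1384 to 1485 UPM against 462 to 503 UPM. Of 14 lipid genes 1 had an unadjusted p under 0.05, 1 was above, 6 below and 7 overlapped, and the fatty acid carrier gene Cd36 measured 2241 to 2647 UPM, against 2219 to 2652 UPM in general capillary cells. The 17 cell cycle genes summed to 103 and 99.9 UPM in BPTES and 118 and 105 UPM in DMSO, against 112 to 133 UPM in general capillary cells. Pcna, the DNA polymerase clamp, measured 60.2 to 72.3 UPM against 49.3 to 58.4 UPM, while the proliferation marker Mki67 was at 0.135 to 0.822 UPM, against 3.77 to 9.31 UPM in general capillary cells. Of 15 clock genes tested 2 had an unadjusted p under 0.05, 3 were above and 1 below, with Per2 at 17.6 and 30.1 UPM against 10.8 and 11.4 UPM. The stem cell antigen Cd34 measured 624 to 702 UPM in aerocytes against 98.9 to 185 UPM.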
